A study of Mus musculus with 11 samples.

Results

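The immunoglobulin heavy and light chain genes and the J chain gene were followed in PN1a and PN1b mammary outgrowths. All probe sets were taken whose annotated symbols name only immunoglobulin heavy, kappa or lambda variable, joining, diversity or constant segments or the whole loci, and the J chain gene was added. The family was chosen by these symbols after the fold changes between the lines in these samples were known. This gave 74 of 12422 probe sets on the array, 36 of them for the heavy chain, 35 for the kappa chain, 2 for the lambda chain and 1 for the J chain. The 74 probe sets carried 36 different symbols, and 62 of them had 1 symbol each and 12 had several. The heavy chain locus lies on mouse chromosome 12, the kappa locus on chromosome 6, the lambda locus on chromosome 16 and Jchain on chromosome 5. A further probe set with both Igk and another gene's symbol, 3 with the older symbol Igh-VS107 and 2 for the surrogate light chain gene Igll1 were outside the rule and were not counted.

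PN1a (5 samples) and PN1b (6 samples) are transplantable lines of premalignant mammary epithelium, compared here in whole mammary glands at 8 weeks after transplantation. Both lines lack p53 in the transplanted epithelium, both come from Balb/c Trp53-/- donor tissue that grew in opposite glands of a single mouse, and both were carried by serial transplantation into cleared fat pads of young female wild type Balb/c mice. PN1a lesions go on to form tumors readily and PN1b lesions seldom do, so each group is a model made of a single line. The host is wild type and has its own lymphocytes. The labels do not say which glands came from which animals, and p-values therefore measure the spread between these samples only. Sample numbers below only name the samples.

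Antibodies are made by B cells and, in large amounts, by the plasma cells they become. Each antibody joins heavy chains to kappa or lambda light chains, and each chain has a variable segment, assembled by DNA rearrangement and different between B cell clones, and a constant segment, which for the heavy chain sets the class (mu for IgM, delta for IgD, gamma for IgG, alpha for IgA). Polymeric IgA and IgM are held together by the J chain and are carried across epithelium, the mammary gland's included, by the polymeric immunoglobulin receptor, Pigr. Because many variable segments share sequence, a probe set for one of them can detect transcripts of its relatives. On this array 32 of the 74 probe sets (43.2%) had the suffix f, which marks probe sets for families of similar sequence, against 8.65% of all probe sets. The symbols do not tell which stretch of a rearranged transcript a probe set matches, and 1 source sequence gave rise both to 2 probe sets named Ighv14-2 and to 1 named Igha. The segment classes below are therefore those of the symbols.

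Values are the intensities deposited for each array, and the median intensity of a sample lay between 8.57 and 9.51. Samples correlated with each other at r of 0.85 to 0.966 over all probe sets. PN1a 1 and PN1a 2 stood apart in the 18S ribosomal RNA control probe sets, whose mean intensity was 160.2 and 222.5 in them, against 8.28 to 19.9 in the other PN1a samples and 5.7 to 14.6 in PN1b. The sample titles have 3 different endings, called array batches here although the labels do not say what the ending stands for. All 5 PN1a samples share batch 1 with PN1b 5 and PN1b 6. PN1b 2 is alone in batch 2, and the other three PN1b samples make up batch 3. The titles of PN1b 1 to PN1b 4 have the form of a range of numbers, and whether these were pools is not stated.

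As a family, the immunoglobulin probe sets had lower values in PN1a than in PN1b, with a wide spread among samples of each line. The median log2 fold change (PN1a minus PN1b) of the 74 probe sets was -0.38, and 58 of them lay below 0, whereas the median of all probe sets tested was -0.01 and 51.4% of those lay below 0. The quartiles of the family were -0.94 and -0.06. In limma's moderated test with Benjamini-Hochberg adjustment (adjusted p under 0.05 and a fold of at least 1.5), 2 of the 74 probe sets were called, both lower in PN1a. Of all probe sets 2.49% were called in either direction, 1.62% lower and 0.869% higher. At an unadjusted p under 0.05, 18 of the 74 passed (15 lower and 3 higher in PN1a), against 18.9% of all probe sets, 11.3% lower and 7.65% higher. Given how the family was chosen, these figures describe it and are no test of it. In bulk tissue, fewer cells of a type and less RNA per cell cannot be told apart.

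Samples of the same line differed from each other as much as the lines did. The mean log2 intensity of the 74 probe sets, after subtracting each probe set's average over the 11 samples, was 0.69, -0.96, -0.51, -0.28 and -0.28 in PN1a 1 to 5, and 0.83, 0.43, -0.16, -0.28, 0.28 and 0.24 in PN1b 1 to 6. PN1a 1 thus lay among the highest PN1b samples, and the other 4 PN1a samples lay at or below the lowest PN1b sample. The low end of the family was most often in PN1a 2, which gave the lowest value of all 11 samples for 34 of the 74 probe sets (45.9%), against 16.1% of all probe sets. The high end was shared by a sample of each line. PN1a 1 was highest for 21 of the 74 (28.4%, against 13.7% of all probe sets), and PN1b 1 was highest for 22 (29.7%, against 7.43%). Across the 11 samples the median range of the family was 2.52 on the log2 scale, against 1.5 for all probe sets.

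**Figure D1:**
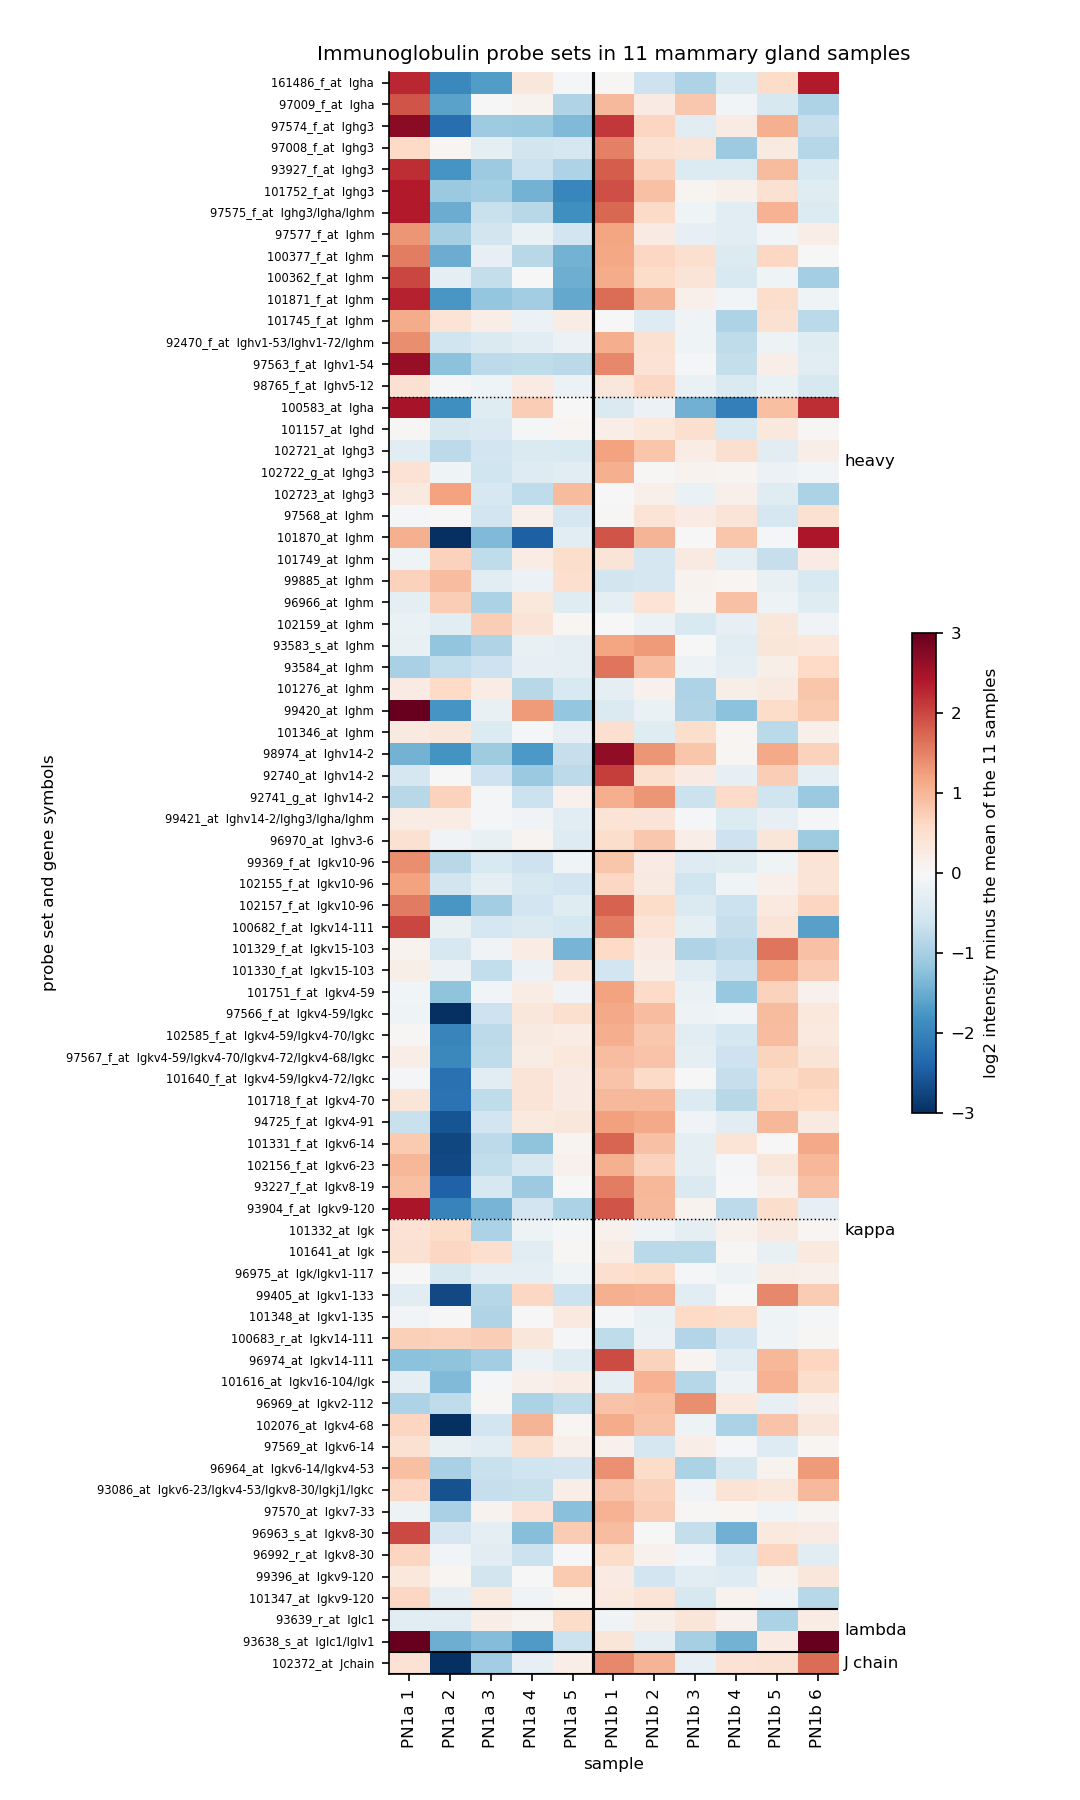
Log2 intensity of each of the 74 immunoglobulin probe sets (rows, by chain, with family probe sets above the dotted line in the heavy and kappa blocks) in 5 PN1a and 6 PN1b samples (columns), minus the mean of the row over the 11 samples, with colours cut off at 3 in either direction. PN1a 2 is the darkest blue column among kappa rows, and PN1a 1 and PN1b 1 are the reddest columns among the heavy chain family rows.

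The J chain gene had lower intensities in most PN1a samples. Jchain (probe set 102372_at) measured 68.1, 2.89, 24.3, 42.2 and 57.3 in PN1a 1 to 5, against a lowest value of 42.2, a median of 85.6 and a highest value of 160.9 in PN1b. PN1a 2 was far below every other sample, 2 more PN1a values lay at or below the lowest PN1b value, and PN1a 1 and PN1a 5 lay inside the PN1b range. The log2 fold change was -1.75 (SE 0.68), which was not called. Without PN1a 1 and PN1a 2 it was -1.17, and within batch 1 it was -2.02.

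Jchain was the only member symbol with an entry among the RefSeq promoters, and its promoter is shown because it is the one regulatory sequence of the family that could be read. It lies at chr5:88527868-88528147 on the minus strand of GRCm38.p6 and covers 250 bases before the start of the gene and the first 30 bases of the transcript, in capitals.
Jchain promoter: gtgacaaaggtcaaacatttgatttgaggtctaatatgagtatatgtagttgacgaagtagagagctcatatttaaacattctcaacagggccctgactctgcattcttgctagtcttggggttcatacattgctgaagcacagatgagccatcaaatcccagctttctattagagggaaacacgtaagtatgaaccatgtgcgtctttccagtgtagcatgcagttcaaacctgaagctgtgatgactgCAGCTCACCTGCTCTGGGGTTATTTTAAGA
The octamer ATGCAAAT, the element of immunoglobulin promoters to which octamer factors bind together with the coactivator Pou2af1, was searched on both strands in windows of 300 bases (250 before the start and 50 from it on). It was absent from the Jchain window and present in 570 of 32851 promoters (1.74%). Among 20 promoters of genes for B cell surface and signaling proteins, 1 held it, that of Blnk, an adaptor of B cell receptor signaling.

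The mu heavy chain, the chain of IgM and of the B cell receptor of naive B cells, was given by 16 probe sets with Ighm as the only symbol, and these did not move together. Ighm by 93583_s_at measured 59.7, 30.3, 36.8, 59.3 and 56.1 in PN1a 1 to 5, against a lowest value of 55.7, a median of 87.7 and a highest value of 166.6 in PN1b. In that probe set 2 PN1a samples were below all PN1b samples and the other 3 lay just above the lowest one, PN1b 4, with a log2 fold change of -1.04 (SE 0.31). A second probe set, 93584_at, gave 5.86, 6.92, 7.57, 9.71 and 9.38 in PN1a, against 9.65, 15.2 and 35 as lowest, median and highest in PN1b, and a log2 fold change of -1.06 (SE 0.31). Only PN1a 4 reached the PN1b range there.

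A wider spread was seen in 101870_at, also symbolled Ighm. It measured 41.1, 2.25, 7.89, 3.61 and 15.8 in PN1a 1 to 5, against 19.3, 37.3 and 104.7 as lowest, median and highest in PN1b. In this probe set 4 of 5 PN1a samples were below all PN1b samples and PN1a 1 was above the PN1b median, with a log2 fold change of -2.25 (SE 0.68). Of all settings run, it was called only without PN1a 1. The 16 probe sets had log2 fold changes of -2.25 to 0.64 with a median of -0.18, and 11 of them lay below 0. At the other end, 99420_at measured 79.3, 2.33, 6.77, 19.2 and 3.56 in PN1a, against 3.41, 6.41 and 13.8 as lowest, median and highest in PN1b, so that PN1a 1 was the highest of the 11 samples and PN1a 2 the lowest. The delta chain, Ighd, the class that naive B cells carry beside IgM, ranged over 2.53 to 3.66 in PN1a and over 2.6 to 4.96 in PN1b, with a log2 fold change of -0.33 (SE 0.20).

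The gamma3 heavy chain (Ighg3, an IgG class) was given by 7 probe sets with that symbol alone, of which 6 had negative log2 fold changes, with a median of -0.80. The clearest separation was in 102721_at, with 13.1, 9.65, 11.1, 12.4 and 12.1 in PN1a 1 to 5, against 13.3, 21.3 and 38.3 as lowest, median and highest in PN1b. Every PN1a value was below every PN1b value, although PN1a 1 and PN1b 5 were almost equal. The log2 fold change was -0.95 (SE 0.25) over all samples and -0.45 within batch 1. It was not called, but was called without PN1b 5, with limma's trend and robust options, among brighter probe sets alone and at the threshold of the methods' t-test (p under 0.01 and a fold of at least 1.5). Complete separation with PN1a lower was found for 2 of the 74 probe sets, against 2.38% of all probe sets, and with PN1a higher for none, against 1.58%.

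Most family probe sets for gamma3 were high in PN1a 1 alone among the PN1a samples. The exception was 97008_f_at, at 5.78 in PN1a 1, 2.58 to 3.97 in the other PN1a samples and up to 10.8 in PN1b. Ighg3 by 97574_f_at measured 73, 2.35, 5.39, 5.17 and 4.47 in PN1a 1 to 5, against 6.96, 15.3 and 48.8 as lowest, median and highest in PN1b. PN1a 1 was the highest of all 11 samples and the other 4 PN1a samples were below all PN1b samples. PN1a 1 was the highest PN1a sample for all 15 heavy chain family probe sets, against 2794 of all 12422 probe sets. It was the highest of all 11 samples for 12 of the 15, against 13.7% of all probe sets. The other 4 PN1a samples were below all PN1b samples for 6 of the 15. Over all 12422 probe sets, 490 had exactly 4 PN1a samples, whichever they were, below all PN1b samples. On the same centred scale the mean of the 15 family probe sets was 1.81 in PN1a 1, from -1.07 to -0.48 in the other PN1a samples and from -0.4 to 1.21 in PN1b. The 21 other heavy chain probe sets had means of 0.22 in PN1a 1, -0.46 to -0.21 in the other PN1a samples and -0.11 to 0.61 in PN1b. Without PN1a 1 the median log2 fold change of the 15 family probe sets was -0.99, against -0.37 with it. PN1a 1 was also 1 of the pair of samples with high 18S control values, and the part of this in the result was not tested.

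**Figure D2:**
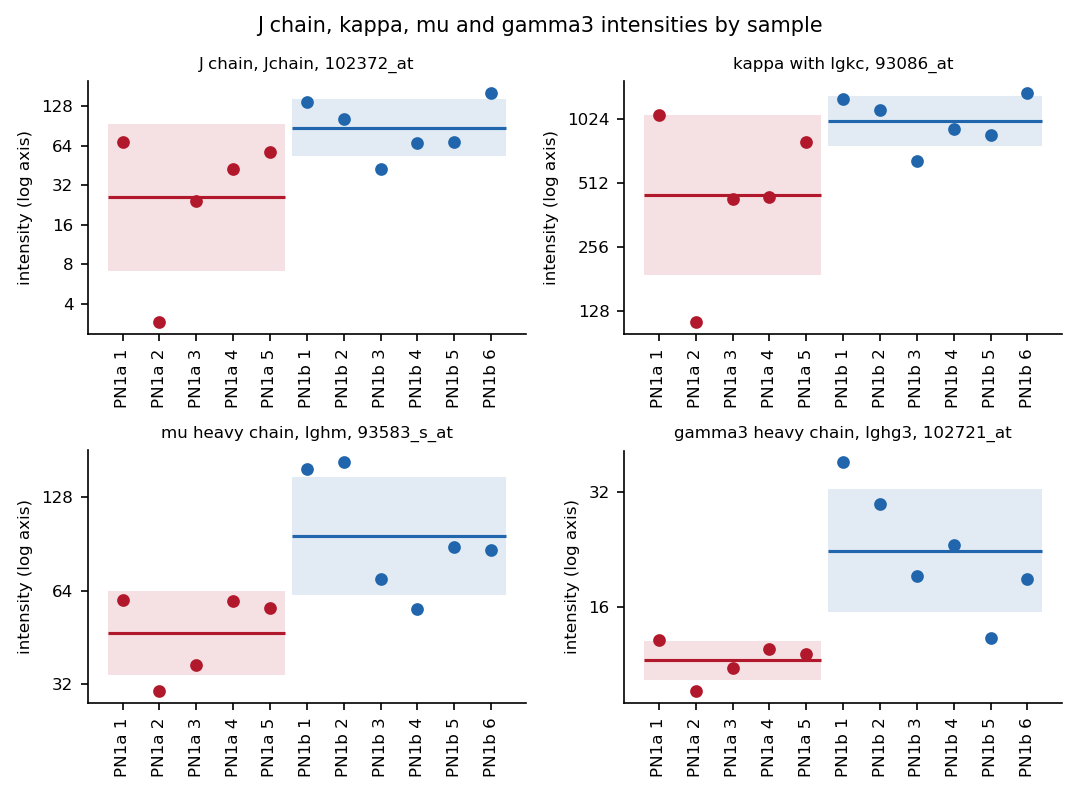
Intensity (log axis) of 1 probe set each for the J chain, kappa, mu and gamma3 in the 5 PN1a (red) and 6 PN1b (blue) samples, with the mean of the log2 values (line) and 1 SD either side (band). PN1a 2 is the lowest sample in all 4 panels, and in the gamma3 panel all PN1a samples lie below all PN1b samples.

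Kappa light chains, used by most mouse antibodies, mostly had lower values in PN1a. Of the 35 kappa probe sets 28 had negative log2 fold changes, with a median of -0.68, and within batch 1 the count was 30 and the median -0.90. The 5 probe sets that include the constant segment Igkc were all below 0 (median -0.83), as were the 10 with a variable segment of the Igkv4 group (median -0.73). The probe set 93086_at, which carries Igkc with several variable symbols, measured 1074.9, 113.8, 430.5, 439.6 and 797.9 in PN1a 1 to 5, against 652.6, 1025.6 and 1360.6 as lowest, median and highest in PN1b. The values of 3 PN1a samples were below all PN1b samples and those of PN1a 1 and PN1a 5 were inside the PN1b range. Its log2 fold change of -1.16 (SE 0.46) was not called.

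Of the 26 kappa probe sets with variable symbols alone, PN1a 1 was the highest PN1a sample for 12, against 2794 of all 12422 probe sets. PN1a 2 was the lowest of all 11 samples for 12 of the 26, against 16.1% of all probe sets. Both held for the probe sets that follow. Igkv6-23 by 102156_f_at gave 867.1, 66.7, 261.4, 308.7 and 471.1 in PN1a 1 to 5, against 359.5, 626.0 and 903.9 as lowest, median and highest in PN1b, and PN1a 1 was level with PN1b 6. Igkv8-19 by 93227_f_at gave 103.3, 10.3, 39.7, 26.2 and 56.5 in PN1a, against 41.4, 82.0 and 160.9 in PN1b. In each of these probe sets 3 PN1a samples lay below all PN1b samples, with log2 fold changes of -1.03 (SE 0.52) and -1.13 (SE 0.51).

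PN1a 1 was the highest PN1a sample for 2 of the 10 Igkv4 probe sets, 93086_at among them, and not for the others. Igkv4-91 by 94725_f_at measured 33.6, 8.94, 35.8, 65.8 and 67.6 in PN1a 1 to 5, against 42.8, 85.7 and 125.4 as lowest, median and highest in PN1b. Here PN1a 1, PN1a 2 and PN1a 3 were below all PN1b samples and PN1a 4 and PN1a 5 were not. PN1a 2 was the lowest of the 11 samples for all 10 Igkv4 probe sets and all 5 Igkc probe sets, and PN1b 1 was the highest for 9 of the 10. For Igkv4-91 the log2 fold change was -1.17 (SE 0.48) over all samples and -0.51 without PN1a 1 and PN1a 2. The median of the 5 Igkc probe sets likewise was -0.83 with all samples and -0.46 without that pair.

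A few kappa probe sets stood outside this pattern. Igkv14-111 had probe sets that disagreed. By 96974_at it measured 2.69, 2.71, 3.07, 5.58 and 4.89 in PN1a 1 to 5, against 4.96, 9.95 and 24.6 as lowest, median and highest in PN1b, a log2 fold change of -1.47 (SE 0.37). By 100683_r_at it measured 16.6, 16.4, 17.1, 12.9 and 9.99 in PN1a, against 5.58, 7.93 and 10.4 in PN1b, a log2 fold change of 0.90 (SE 0.23), the highest of the 74. All but 1 PN1a sample were outside the PN1b range in both, below it in the first and above it in the second. By the family probe set 100682_f_at the log2 fold change was 0.10 (SE 0.56). None of the 3 was called in the limma test of the deposited values. With all samples the first 2 were called after repeated quantile normalization, with limma's trend and robust options, with probe sets at the lowest value left out and at the threshold of the methods' t-test, and the second also after centring on the median and among brighter probe sets alone. With 1 sample left out, the first was called without PN1b 4, and the second without PN1a 5, PN1b 5 or PN1b 6. The probe sets 100683_r_at and 100682_f_at came from the same source sequence and still differed, whereas 96974_at came from another. The probe set 100683_r_at carries the suffix r, which 96974_at lacks. Whether this makes its higher values in PN1a less reliable was not tested.

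Both called probe sets were for variable segments with low intensities. Ighv14-2, a heavy chain variable segment, measured 1.28, 1, 1.64, 1.05 and 2.14 by 98974_at in PN1a 1 to 5, against 3.56, 6.81 and 21.9 as lowest, median and highest in PN1b. All PN1a values were below all PN1b values and 1 of them, PN1a 2, was at the lowest value of the table, so the size of the log2 fold change, -2.45 (SE 0.39), depends on that floor. Ighv14-2 was called with each sample left out in turn, and within batch 1, where its log2 fold change was -2.24, it was not called. Its other 2 probe sets with that symbol alone, 92740_at and 92741_g_at, had log2 fold changes of -1.10 (SE 0.38) and -0.24 (SE 0.45) and were not called.

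Igkv2-112, a kappa variable segment, was the other called member. By 96969_at it measured 1.28, 1.44, 2.5, 1.25 and 1.44 in PN1a 1 to 5, against 2.04, 3.7 and 6.41 as lowest, median and highest in PN1b. Only PN1a 3 overlapped PN1b, and the log2 fold change was -1.23 (SE 0.29). The call held in 3 of the 11 fits that left out 1 sample (PN1a 3, PN1b 5 or PN1b 6), and within batch 1 the log2 fold change was -0.62 and was not called.

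Alpha heavy chain and lambda light chain transcripts did not follow the lines but stood high in 1 sample of each. Igha, the chain of the IgA that is secreted at mucosal surfaces and into milk, measured 91.1, 4.63, 12.7, 27.3 and 16.2 by 100583_at in PN1a 1 to 5, against 3.97, 13.4 and 76.6 as lowest, median and highest in PN1b. The 2 highest samples were PN1a 1 and PN1b 6, the third was PN1b 5 at 30.5, and the log2 fold change was 0.36 (SE 0.79). By 161486_f_at Igha measured 18.3, 1, 1.18, 4.82 and 3.73 in PN1a, against 2.01, 3.37 and 19.7 in PN1b. PN1a 1 and PN1b 6 were again the highest, at 18.3 and 19.7, and the log2 fold change was -0.37 (SE 0.73). The third Igha probe set, 97009_f_at, was high in PN1a 1 at 22.8 but not in PN1b 6, where it was 3.27.

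Lambda light chains showed the same pair of samples. Iglc1 and Iglv1, the constant and a variable segment of lambda1, measured 52, 1.78, 2.01, 1.51 and 3.18 by 93638_s_at in PN1a 1 to 5, against 1.84, 4.98 and 68.6 as lowest, median and highest in PN1b. PN1a 1 at 52 and PN1b 6 at 68.6 stood alone, and every other sample was at 6.32 or below. The other lambda probe set, 93639_r_at for Iglc1, did not show this, with 5.86 to 10.9 in PN1a, 5.86 of it in PN1a 1, and 3.84 to 9.58 in PN1b, 8.63 of it in PN1b 6. The 2 lambda probe sets had log2 fold changes of -0.63 (SE 0.99) and 0.06 (SE 0.26). Since both high samples are in batch 1, where PN1b has only PN1b 5 and PN1b 6, the log2 fold changes within batch 1 moved to -1.36 and -1.66 for the first 2 Igha probe sets and to -2.37 for 93638_s_at. The fit within batch 1 was not run without PN1b 6. In the fit of all batches without PN1b 6, the log2 fold change of 100583_at was 0.84 and was not called.

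**Figure D3:**
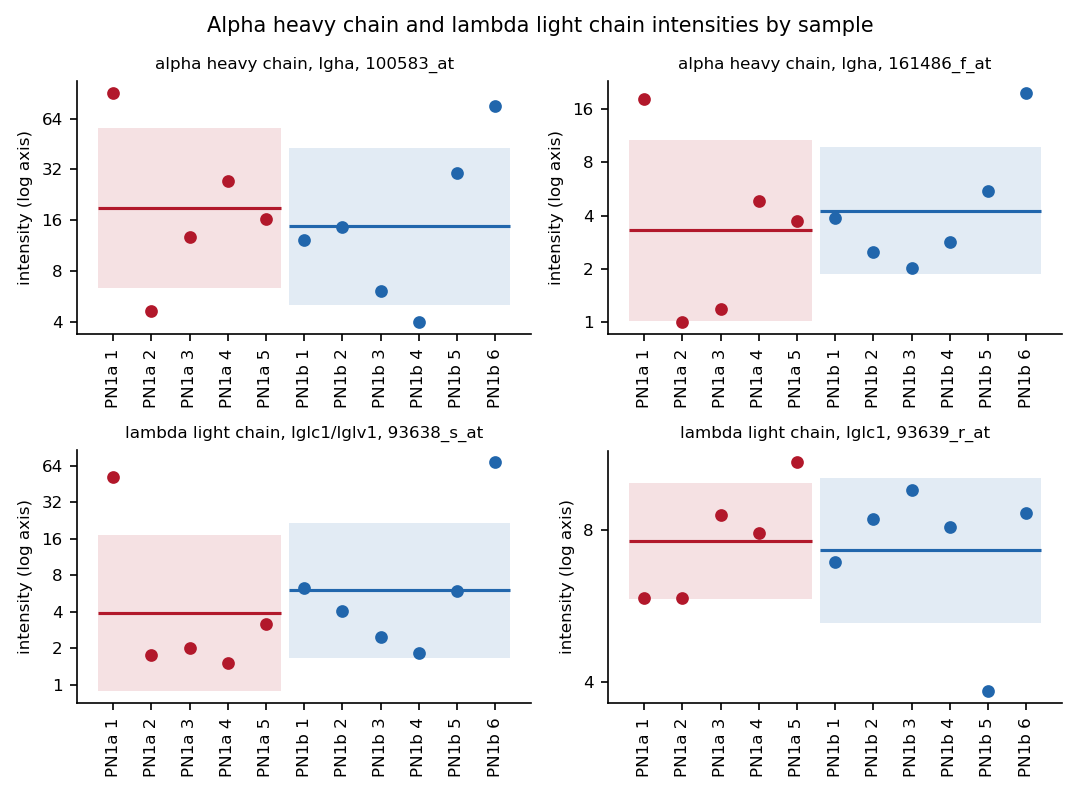
Intensity (log axis) of 2 Igha and 2 lambda probe sets in the 5 PN1a (red) and 6 PN1b (blue) samples, with the mean of the log2 values (line) and 1 SD either side (band). PN1a 1 and PN1b 6 are the highest samples in both Igha panels and in the 93638_s_at panel, and the 93639_r_at panel lacks this pattern.

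Brighter probe sets were shifted more than dim ones. For the 31 members whose mean log2 intensity reached the median of the array, 27 log2 fold changes were below 0 with a median of -0.80, whereas the median of all probe sets in that range was -0.06. The 43 dimmer members had a median of -0.25, with 31 below 0. By the symbols, the 32 members with variable segments alone had a median of -0.53 and the 29 with constant segments alone had a median of -0.33. The difference between the 2 classes is small beside the range within each, -2.45 to 0.90 and -2.25 to 0.64.

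The direction of the family was the same within batch 1 and without the samples that stood apart. Within batch 1, with 5 PN1a and 2 PN1b samples, 53 of the 74 probe sets were below 0 with a median of -0.52, and limma called none of them and 18 of all 12422, with 8 of the 74 and 7.32% of all probe sets at an unadjusted p under 0.05. Without PN1a 1 the median was -0.68 with 62 below 0, and without PN1a 1 and PN1a 2 it was -0.47 with 60 below 0. The chains changed places with the samples used. Heavy chain probe sets had a median of -0.29 with all samples, -0.21 within batch 1 and -0.52 without PN1a 1 and PN1a 2, and kappa probe sets had medians of -0.68, -0.90 and -0.46 in the same 3 fits.

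**Figure D4:**
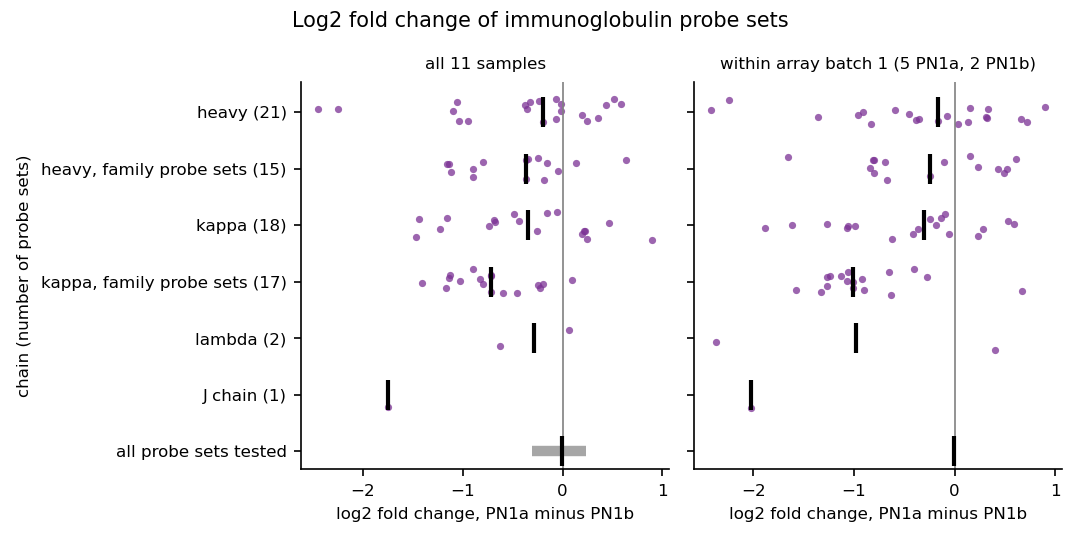
Log2 fold change (PN1a minus PN1b) of each immunoglobulin probe set (points, spread vertically for legibility) in all 11 samples (left) and within array batch 1 (right). Rows are chains, with family probe sets of the heavy and kappa chains in rows of their own. Bars are the medians of the rows. The bottom row gives the median and, at left, the span between quartiles (grey) of all probe sets. Medians of the 74 probe sets together, not drawn, were -0.38 (all samples) and -0.52 (batch 1), against -0.01 for all probe sets in both fits.

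The other genes of antibody production were taken from lists of B cell, plasma cell, rearrangement, transport and attraction genes, with 1 probe set per gene. Over all probe sets, 2.49% were called and 18.9% had an unadjusted p under 0.05 in limma. The threshold of the methods' t-test was passed by 5.74%. Of 19 measured genes for B cell surface and signaling proteins 1 was called higher (Ly86, a part of an innate receptor of B cells and macrophages, log2 fold change 1.27, SE 0.30) and none lower, with a median log2 fold change of -0.03. The B cell gene Ms4a1 had a log2 fold change of 0.33 by the brighter probe set used and -1.65 by a dimmer one, neither called. Of 15 plasma cell and secretion genes 1 was called lower (Pou2af1) and none higher, with a median of -0.09. Limma called none of 13 genes for rearrangement and class switching, with 1 at an unadjusted p under 0.05 and 0 past the threshold of the methods' t-test. Of 9 genes for immunoglobulin transport and Fc receptors 1 was called higher (Fcgr2b), and of 13 B cell cytokine and attraction genes 1 was called lower (Madcam1, the vessel addressin that guides lymphocytes into mucosal tissue, log2 fold change -0.82, SE 0.19), with list medians of 0.04 and 0.07. A dimmer probe set for Madcam1 had a log2 fold change of 0.31 and was not called. At an unadjusted p under 0.05 (limma) and past the methods' t-test threshold there were 3 and 1 of the 19 B cell genes. By the same measures there were 4 and 3 of the 15 plasma cell and secretion genes. The counts were 4 and 3 of the 9 transport and Fc receptor genes, and 2 and 2 of the 13 attraction genes.

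Pou2af1, the coactivator that works with octamer factors on immunoglobulin promoters, gave the clearest difference among these genes. It measured 3.84, 3.05, 2.69, 3.56 and 3.32 in PN1a 1 to 5, against 9.19, 11.2 and 16.8 as lowest, median and highest in PN1b. The groups did not overlap, and PN1a 1 was as low as the other PN1a samples. The log2 fold change was -1.86 (SE 0.19, adjusted p = 0.000128, limma). It was called with each sample left out in turn and also within batch 1 (log2 fold change -1.75, adjusted p = 0.0485, limma). A second probe set for Pou2af1 was dimmer, with a log2 fold change of -0.17, and was not called.

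Pigr, which carries J chain antibodies across the mammary epithelium, measured 14.3, 98.4, 116.2, 130.7 and 75.1 in PN1a 1 to 5, against 103.3, 326.5 and 404.5 as lowest, median and highest in PN1b. Apart from PN1b 5 at 103.3, every PN1b sample was above every PN1a sample. This gave a log2 fold change of -2.02 (SE 0.53), which was not called with all samples (adjusted p = 0.0602, limma) and was called without PN1b 5, among brighter probe sets alone and at the threshold of the methods' t-test. PN1a 1, the sample with the highest Igha value, had the lowest Pigr value. It also had the lowest centred mean of the 17 listed mammary epithelial genes, at -0.79. That mean was -0.4 to 1.02 in the other PN1a samples and -0.38 to 0.17 in PN1b. The part of this in the Pigr value was not tested.

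Among Fc receptor and B cell genes the direction differed from gene to gene. Fcgr2b, the inhibitory IgG receptor of B cells and macrophages, was higher in PN1a, with 15.1, 6.96, 6.19, 8.63 and 5.7 in PN1a 1 to 5 against 2.16, 3.15 and 4.38 as lowest, median and highest in PN1b, and no overlap. Its log2 fold change was 1.39 (SE 0.28, adjusted p = 0.0217, limma). It was not called without PN1b 1, without PN1b 4 or without PN1a 1 and PN1a 2. The call was also lost by the methods' t-test after Benjamini-Hochberg adjustment and with log2(value + 16). With array batch as a fixed block it was lost too, as it was within batch 1, where the log2 fold change was 0.97. Cd79a and Cd79b, the signaling subunits of the B cell receptor, had log2 fold changes of -0.48 (SE 0.32) and -0.43 (SE 0.36) with overlapping groups, and neither was called. For Cxcl13, the chemokine that draws B cells into follicles, the log2 fold change was -1.26 (SE 0.34), called without PN1a 4 and at the threshold of the methods' t-test and in no other setting run. For Xbp1, a plasma cell factor that is also active in secretory epithelium, it was 0.02 (SE 0.23).

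**Figure D5:**
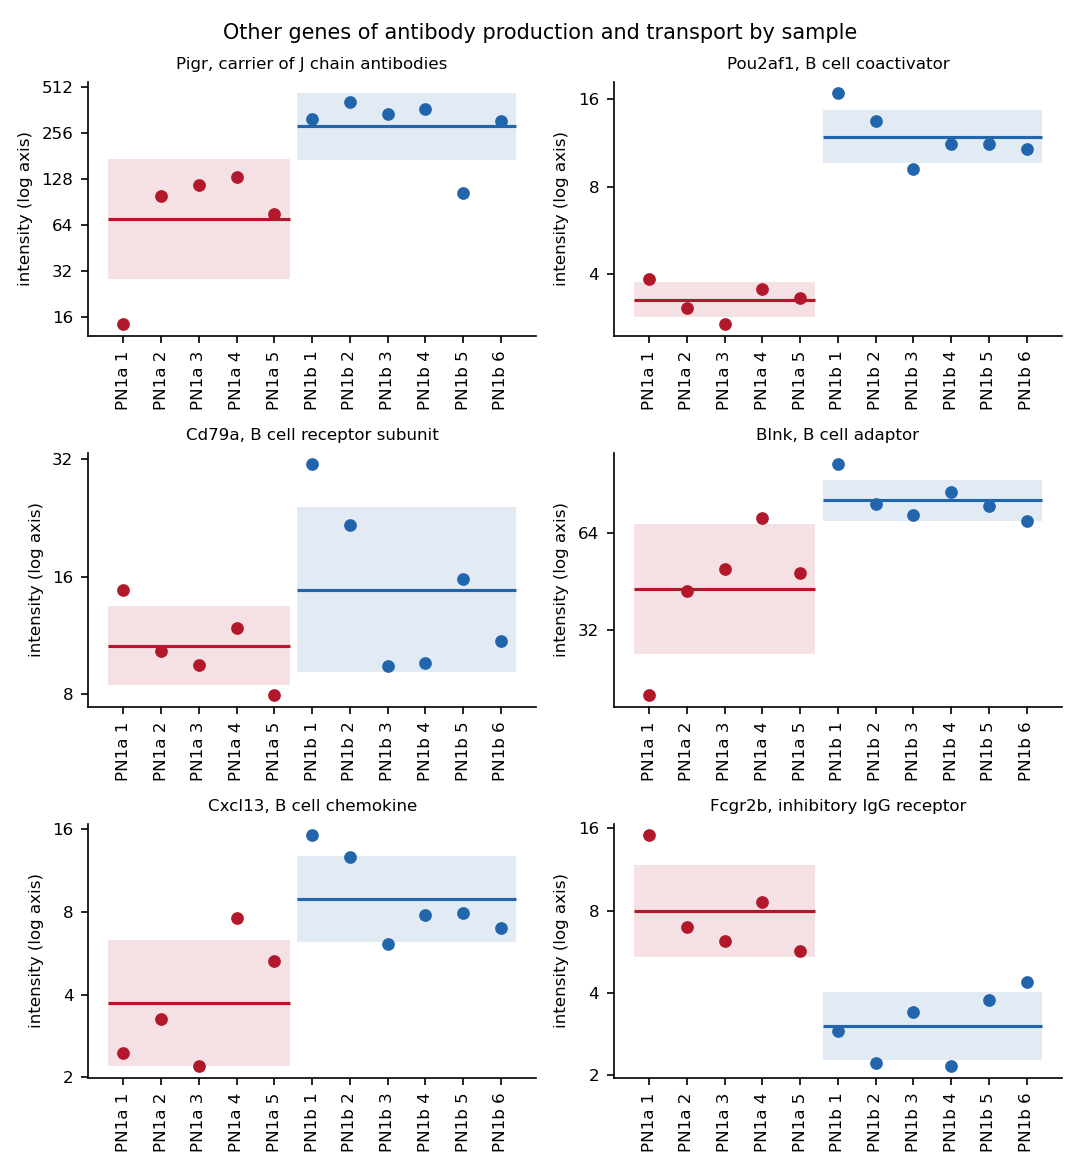
Intensity (log axis) of Pigr, Pou2af1, Cd79a, Blnk, Cxcl13 and Fcgr2b in the 5 PN1a (red) and 6 PN1b (blue) samples, with the mean of the log2 values (line) and 1 SD either side (band). Pou2af1 (2.69 to 3.84 in PN1a, 9.19 to 16.8 in PN1b) and Fcgr2b (5.7 to 15.1 in PN1a, 2.16 to 4.38 in PN1b) show no overlap, in opposite directions, and the other 4 genes overlap.

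Sample by sample, the B cell list did not follow the immunoglobulin probe sets throughout. In PN1a 2, the sample with the lowest immunoglobulin mean, the centred mean of the 19 B cell genes was -0.01, just above the -0.08 to -0.02 of the other PN1a samples. In PN1b 1, which had the highest immunoglobulin mean, it was 0.52, against -0.32 to 0.15 in the other PN1b samples. The plasma cell list was lowest in PN1a 2, at -0.29, against -0.07 to 0.07 in the other PN1a samples and -0.06 to 0.16 in PN1b.

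Markers of other cell types a gland can hold also differed. Macrophage and monocyte genes had a median log2 fold change of 1.16 (13 of 14 above 0, with Cd68, at 1.11, and C1qb, at 2.20, called higher), and their summed intensity lay between 860.8 and 1413.6 in PN1a, against 325.4 to 914.6 in PN1b. Of 8 genes listed under lymph node stroma and vessels 2 were called lower, Glycam1 and Fst (log2 fold changes -4.16 and -2.08). Glycam1 is a ligand of L-selectin on lymph node vessels that is also a milk protein. The name of the list does not make either gene specific to lymph nodes. The list had a median of 0.05, whereas its summed intensity was 89.5 to 139.4 in PN1a against 202.6 to 373.1 in PN1b, without overlap. Glycam1 measured 1.06, 1.61, 8.46, 22.3 and 22.8 in PN1a 1 to 5, against 59.3, 105.9 and 206.5 as lowest, median and highest in PN1b. Fst ranged from 6.82 to 14.5 in PN1a and from 36.8 to 58.1 in PN1b. Glycam1 and Fst were a large part of the PN1b sums. The removal of lymph nodes is not stated for the array samples. Limma called none of 18 T and NK cell genes. Of these, 3 had an unadjusted p under 0.05, against 18.9% of all probe sets. The methods' t-test at its own threshold took 1, against 5.74% of all. Their summed intensity overlapped (170.6 to 272.9 in PN1a, against 154.7 to 289.3 in PN1b). Limma also called none of 17 mammary epithelial genes (7 and 2 by the same measures), each by its brightest probe set. A dimmer probe set of Krt19, a luminal keratin, was called higher (log2 fold change 3.74). These genes had sums of 736.5 to 3015.6 in PN1a, against 1979.3 to 3071.6 in PN1b. Of 8 adipocyte genes Lpl was called lower (log2 fold change -1.81), and the sums were 67.2 to 174.9 in PN1a, against 208 to 277.9 in PN1b. With 1 sample left out at a time, Glycam1 and Fst were called in all 11 fits, Ly86, Madcam1, Cd68 and Lpl in 3 each and C1qb in 2. Within batch 1 Pou2af1 was the 1 gene of all the lists that was called. The part of these cell types in the immunoglobulin values was not tested.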

How the data were processed

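Total RNA of whole mammary glands from 5 PN1a and 6 PN1b outgrowths was hybridised to Affymetrix MG_U74Av2 arrays. dChip was used by the authors to summarise each probe set (PM-MM model) and to normalize the arrays (quantile), in a version not given in the sources used here. The deposited table holds linear intensities of 12488 probe sets. All deposited intensities lie on a log2 grid of 0.01, the lowest is 1, and 0.817% of values are at it. Scanner files were not used, so background correction and summarisation were not repeated, and normalization was repeated only on the deposited values, as an alternative.

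Log2 was taken without a pseudocount, 66 control probe sets were left out and 12422 were tested. No filter on low values was applied to the members. Gene symbols came from the annotation of the array with symbols brought up to date by gene identifier (10833 probe sets had 1 symbol, 396 several and 1193 none). The difference PN1a minus PN1b was tested with limma 3.58.1 in R 4.3.3 (two-sided, no covariate, Benjamini-Hochberg over all probe sets), a fit first checked on simulated data. Probe sets were called at an adjusted p under 0.05 and a fold of at least 1.5. Fold changes are differences of mean log2 intensity. The number of arrays limits the precision. Alternatives covered the methods' t-test, normalization, pseudocount, dim probe sets, array batch and left-out samples.

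The members and gene lists were chosen with earlier results of these data known. The rule for named probe sets takes members with a constant segment or the J chain, the 3 brightest of each chain, the 5 largest changes in each direction, the 5 widest ranges, called members, and of each list the called genes and up to 4 with the highest mean. The text names part of these, and any other probe set or gene it names was singled out after its values were seen. The promoter is RefSeq's, with GRCm38.p6 coordinates. Python 3.11.15 with matplotlib 3.10.9 drew the figures.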

Additional observations from a re-analysis of the deposited data

Results flagged for a closer look

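A sample was singled out where its gap to the nearest sample of its group was large against the range of the group (Dixon's criterion at the 95% level, on log2 intensities), which chance alone meets in about 1 in 20 groups. Over all 74 immunoglobulin probe sets this held for 14 PN1a groups (18.9%, against 6.3% of all probe sets), in 11 of which PN1a 1 was the high sample, and for 4 PN1b groups (5.41%, against 6.54%).

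Among heavy chain probe sets, PN1a 1 was far above the other PN1a samples for Ighg3 by 97574_f_at (73, against 2.35 to 5.39), 93927_f_at (41.4, against 2.62 to 5.66) and 101752_f_at (22.9, against 1.14 to 2.2). The same held for Ighm by 101871_f_at (29, against 1.74 to 2.83), Ighv1-54 by 97563_f_at (43.7, against 3.05 to 4.17) and 2 probe sets with several symbols, 97575_f_at (30.3, against 1.62 to 3.66) and 92470_f_at (30.7, against 7.67 to 10.2). Among light chain probe sets it held for Iglc1 and Iglv1 by 93638_s_at (52, against 1.51 to 3.18), Igkv14-111 by 100682_f_at (54.6, against 9.38 to 11.6), Igkv10-96 by 102155_f_at (37, against 10.9 to 13.5) and Igkv6-14 and Igkv4-53 by 96964_at (9.25, against 2.53 to 3.32). PN1a 1 was far below the other PN1a samples for Pigr (14.3, against 75.1 to 130.7). PN1a 2 was far below them for Igkv4-59 by 101751_f_at (3.66, against 7.78 to 9.78) and by 101640_f_at, which also carries Igkv4-72 and Igkc (6.32, against 23.4 to 38.6). PN1a 3 stood above the other PN1a samples for Igkv2-112 by 96969_at (2.5, against 1.25 to 1.44).

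In PN1b, PN1b 6 stood above the others for 93638_s_at (68.6, against 1.84 to 6.32) and PN1b 1 for Ighg3 by 102722_g_at (22.9, against 9.71 to 11.7) and Ighm by 97577_f_at (10.3, against 3.63 to 5.35). PN1b 5 stood below the others for Iglc1 by 93639_r_at (3.84, against 6.92 to 9.58) and for Pigr (103.3, against 304.4 to 404.5). PN1b 5 and PN1b 6 are the PN1b samples that share array batch 1 with PN1a. The part of the batch in these values was not tested.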

How the results depend on the processing

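The median log2 fold change of the immunoglobulin probe sets stayed below 0 under every alternative run, between -0.10 with log2(value + 16) and -0.80 for probe sets at or above the median intensity, and between -0.68 and -0.28 with 1 sample left out. The counts of calls depended more on the setting. Of the 74 probe sets 2 were called, and 1 by the methods' t-test after Benjamini-Hochberg adjustment, 5 at that test's own threshold, 4 after repeated quantile normalization, 0 with log2(value + 16), 0 when array batch was a fixed block, 0 in batch 1 alone (14, 8 and 8 at an unadjusted p under 0.05, against 19.6%, 9.84% and 7.32% of all probe sets) and 1 with batch as a random block, 5 with a trend and robust eBayes, and 1 to 4 with 1 sample left out. Of all probe sets 309 were called, against 145 and 713 by the 2 forms of the t-test, 213 with log2(value + 16), 31 with the batch block, 18 within batch 1, 162 with the random block, 167 without PN1a 1 and PN1a 2, and 126 to 559 with 1 sample left out. Centring each array on its median moved the split of these calls to 186 lower and 155 higher in PN1a, against 201 lower and 108 higher. Of the companion genes 9 were called, against 3 and 20 by the t-test, 5 with log2(value + 16), 14 for bright probe sets only, 2 with the batch block, 1 within batch 1, 4 with the random block and 3 to 16 with 1 sample left out. For single members and named genes, 2019 values under the alternatives gave 96 lost calls, 27 gained calls and no change of direction of a called value. The cause was not tested. The lowest count over all probe sets came without PN1b 3 (126) and the highest without PN1b 5 (559). No paired analysis was possible because the labels give no replicate numbers that the groups share. Depth does not apply to arrays, and 43 of the 74 probe sets lay below the median intensity.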
